A study of Drosophila melanogaster with 12 samples.

Results

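Heads of male Drosophila melanogaster from 1 population bred for fighting, aggressive I, were compared with heads from 1 reference population, neutral I, on 3 Affymetrix arrays each. All 13966 probe sets of the array that are not controls were taken, from 6 of the 12 arrays of the study, and 8379 of them were bright enough to be tested. The other 6 arrays hold the second such pair, aggressive II and neutral II, and enter where the first pair is set against them. All males were 5 days old, came from generation 21 of the breeding and derived from Canton-S, a wild-type laboratory stock. In the aggressive populations, males were chosen for aggressive behaviour in each generation. Neutral males were drawn at random from a cage of 120 males once 15 to 30 aggressive ones had been taken out, so neutral I is a reference that was itself bred by a rule. The study describes the neutral populations as showing no significant response to this regime. RNA came from whole heads of males kept in groups, all frozen at the same time of the afternoon. With 1 population per side, a difference says that these populations differ, and drift in a small cage cannot be told apart from selection. Nothing in the labels ties the 3 arrays of a population to separate cultures, so p-values measure only the spread between arrays, which may be technical.

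A fly head holds the brain, the compound eyes, the antennae with their olfactory hairs, muscle, cuticle and a layer of fat body, the insect tissue that combines functions of liver and adipose. The fat body secretes antimicrobial peptides into the blood when the Toll or Imd pathway is active, and it stores protein and fuel. Odorant-binding proteins are small secreted carriers that fill the fluid around olfactory neurons, and several are made in other tissues too. Male fighting in flies depends on pheromone detection as well as on brain amines and peptides.

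The arrays carried the transcripts of a head. Photoreceptor markers such as the arrestins Arr1 and Arr2 lay at the top of every array (mean percentile 100 each), and markers of neurons and glia such as nSyb, elav, Gs2 and repo were well up the scale (percentiles 94.2, 73.8, 98.7 and 74). Of the other neuron markers, Rdl lay at 84 and para at 42.5, while brp and cac, at 32.6 and 34.4, were too dim to be tested. Accessory gland genes, a sign of male reproductive tract, were near the floor, with Acp26Aa, Acp36DE and Acp53Ea at percentiles of 2.9, 3.39 and 3.34, but the sperm genes Mst84Da, Mst87F and Mst98Ca of the same list lay at 57.6, 55.5 and 47 and were tested. Of 7 midgut markers 5 were below the filter, from Jon25Biii at the percentile 11.3 to betaTry at 29.3, and the protease genes Jon65Ai and Jon65Aiv lay at 57.9 and 40.7. Arrays of the same population correlated over the tested probe sets with r between 0.953 and 0.97, and arrays of opposite populations between 0.945 and 0.963, so these ranges overlapped. The line label of neutral I arrays 1 and 2 reads Canton-S without the word selected, which is on the label of all other arrays, and these arrays were kept where their titles place them. Median signal was 962.7 to 996.6 on the aggressive I arrays and 1003 to 1051 on the neutral I arrays.

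Limma called 34 of 8379 probe sets (0.406%) at an adjusted p under 0.05, 22 higher in aggressive I (0.263%) and 12 lower (0.143%). The balance of directions changed with the scaling: quantile normalization gave 14 in each direction, and no centring gave 15 and 16. Of the 34, 24 have 1 gene name, 9 have none and 1 stands for several genes. The differences ran from 0.57 to 2.28 in size on the log2 scale. Arrays of the 2 populations did not overlap for any of the 34, which was also true of 1561 of all 8379 probe sets (18.6%). A further 75 probe sets differed by 1 or more on the log2 scale without being called, and 1100 (13.1%) had an unadjusted p under 0.05. The counts at that level given for gene lists below are to be set beside this share. Fold changes below are on the scale of log2(signal + 94.6), which understates the change of dim probe sets, while signals are the deposited intensities. With a fit that also held the 18S rRNA signal of each array, which was higher in aggressive I, only 9 probe sets were called, 7 of them among the 34.

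**Figure D1:**
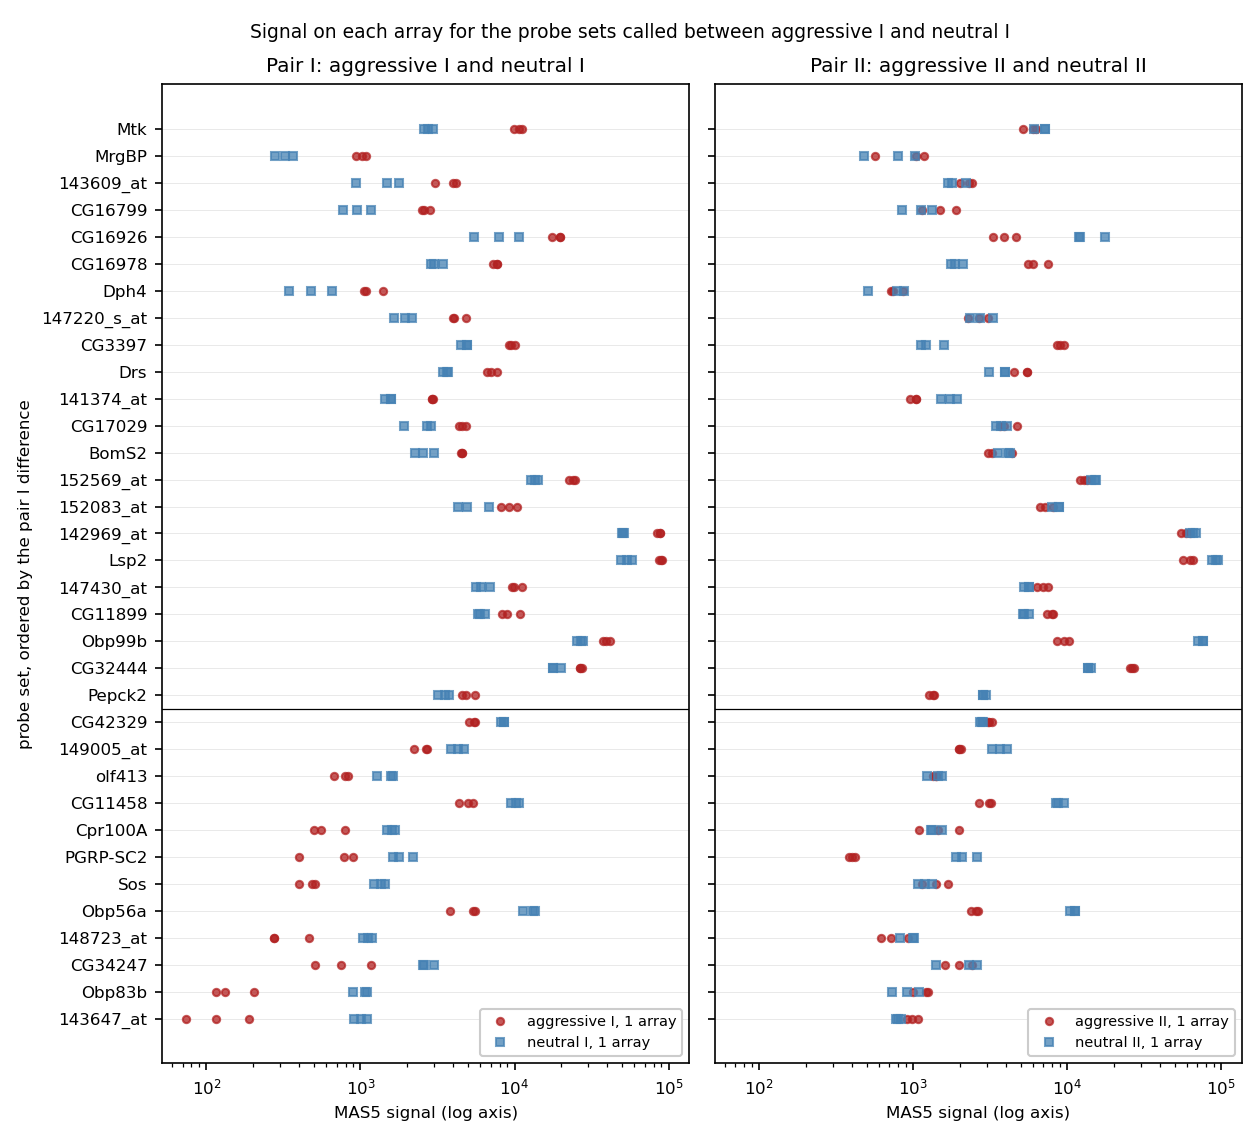
MAS5 signal (log axis) of the 34 called probe sets, 1 point per array, with aggressive I (circles) and neutral I (squares) on the left and the second pair on the right; the horizontal line parts the 22 higher from the 12 lower in aggressive I. On the left the circles and squares of every row are apart, while on the right they overlap or change sides in many rows, as for Obp99b and Pepck2.

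Of the 32 functional lists examined, that of humoral defence held the most calls by number, though not by share of tested genes. Of its 27 tested genes for immune effectors and recognition, 3 rose in aggressive I (Mtk, Drs and BomS2), 1 fell (PGRP-SC2) and 23 did not pass. The smaller list of odorant-binding proteins had 1 gene called higher and 2 called lower of 17 tested, beside 34 of all 8379 probe sets (0.406%). Mtk (CG8175) encodes metchnikowin, a proline-rich peptide active against fungi and Gram-positive bacteria. The arrays read 9932, 11246 and 10764 on the aggressive I arrays and 2584, 2945 and 2741 on the neutral I arrays. All 3 aggressive I arrays lay above the highest of the other 9 arrays of the study, and all 3 neutral I arrays below the lowest of the other 9. Mtk was thus 3.94-fold higher (log2 difference 1.98, SE 0.12, limma adjusted p = 5.4e-05), and it stayed called without any 1 of the 6 arrays.

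Drs (CG10810) encodes drosomycin, the antifungal peptide most used as a readout of Toll. It gave 7701, 7062 and 6590 in aggressive I against 3416, 3708 and 3643 in neutral I. Here too the aggressive I arrays were above all others of the study, while those of neutral I lay within the range of the second pair. Drs rose 2.05-fold (log2 difference 1.03, SE 0.13, limma adjusted p = 0.00514). BomS2 (CG18106) encodes a bomanin, one of the short secreted peptides induced through Toll. Its arrays read 4596, 4593 and 4523 in aggressive I and 2553, 2992 and 2255 in neutral I, with neither population overlapping the remaining arrays. It was 1.82-fold higher (log2 difference 0.87, SE 0.15, limma adjusted p = 0.0457), a call that held with neutral I array 2 left out but not without any other of the 6 arrays (adjusted p up to 0.15).

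BomS2 sits in a row of bomanin genes on chromosome arm 2R, and its tested neighbours were not called. BomS4, BomBc2, BomT2 and BomS5 had log2 differences of 0.28, 0.46, 0.31 and 0.41 (adjusted p = 0.264, 0.18, 0.195 and 0.176). BomBc3, looked up after its value was seen, lay just outside the threshold at 0.88 (adjusted p = 0.0547). Short related peptides of this kind may share signal between probe sets, which the intensities cannot separate.

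PGRP-SC2 (CG14745), an enzyme that cuts bacterial peptidoglycan and thereby dampens Imd signalling, went the other way. It read 778.2, 398.9 and 894.4 in aggressive I against 2182, 1624 and 1786 in neutral I. It fell 2.47-fold (log2 difference -1.30, SE 0.23, limma adjusted p = 0.0474), and the call held only without aggressive I array 2 or 3 (adjusted p up to 0.162). The Imd-side peptide gene DptB, the recognition genes PGRP-LB and PGRP-LE and the complement-like gene Tep4 were among the 23 that did not pass, with log2 differences of 0.36, 0.28, -0.12 and -0.03. Over the 27 genes the median was 0.28, with 18 above 0, beside a median of 0.04 and 4774 of 8379 above 0 for all tested probe sets. After quantile normalization the median of the list was 0.13. The lysozyme genes of the list, LysB, LysC, LysD, LysE and LysS, were not called (log2 differences -0.10, 0.07, -0.54, -0.01 and -0.09). CG16799, a gene of the lysozyme family by its sequence, was called separately. It read 2494, 2585 and 2819 in aggressive I against 956.2, 771.2 and 1178 in neutral I, 2.72-fold higher (log2 difference 1.44, SE 0.19, limma adjusted p = 0.00783).

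Markers of blood cells, another source of immune transcripts, did not separate the populations as a list. Of 6 tested, none was called by limma, 4 were above 0, and 3 had an unadjusted p under 0.05. Their summed signal was 23964 to 26764 in aggressive I and 22455 to 24536 in neutral I. Their part in the immune differences was not tested. In whole heads, fewer cells of a type and less RNA per cell cannot be told apart.

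Odorant-binding protein genes moved in both directions. Of 36 on the array 17 were bright enough to be tested, of which 1 rose, 2 fell and 14 did not pass. Obp83b (CG11422), a carrier abundant in the olfactory hairs of the antenna, had signals of 204.6, 132 and 116.1 in aggressive I and 1106, 1063 and 899.1 in neutral I. The aggressive II and neutral II arrays, at 724.1 to 1252, were like neutral I, so the low values were those of aggressive I. Obp83b fell 4.38-fold (log2 difference -2.13, 95% interval -2.51 to -1.76, SE 0.17, limma adjusted p = 0.000232). The deposited means differed by a ratio of 6.78, and those of aggressive I lay at the percentile 15.6 of their arrays, where detection calls, not used here, would be needed to say that any transcript was present.

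Obp56a (CG11797), a carrier from a cluster of related genes, gave 5346, 5501 and 3814 in aggressive I and 13656, 13176 and 11288 in neutral I. It fell 2.48-fold (log2 difference -1.31, SE 0.14, limma adjusted p = 0.00237). Neutral I had the highest 3 of all 12 arrays, but neutral II came close at 10429 to 11272, while aggressive II read 2364 to 2640. Obp99b (CG7592), which is made in fat body as well as in antennae, gave 37643, 41907 and 39022 in aggressive I and 25317, 27058 and 27805 in neutral I. Its 1.55-fold rise (log2 difference 0.63, SE 0.10, limma adjusted p = 0.0247) was lost without any 1 of the 6 arrays, with an adjusted p up to 0.113 without neutral I array 1, and after quantile normalization.

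The 14 odorant-binding protein genes that were not called lay between -0.29 and 0.56, so the called decreases of Obp83b and Obp56a were apart from the family. The family median was 0.12, with 13 of 17 above 0, and 0.04 after quantile normalization. Genes of odour and taste receptors were mostly too dim, with 12 of 124 tested. None of the 12 was called by limma, 1 had an unadjusted p under 0.05, and Or7a had the smallest p (log2 difference -1.14, SE 0.46, adjusted p = 0.327).

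Among fuel and storage genes, Lsp2, Pepck2 and a few enzymes were higher in aggressive I. Lsp2 (CG6806) encodes a hexamerin, a storage protein that fat body secretes. It read 89284, 91081 and 86603 in aggressive I and 48785, 53771 and 58330 in neutral I, and the populations were far apart relative to their spread. The gene rose 1.74-fold (log2 difference 0.80, SE 0.11, limma adjusted p = 0.00783) and kept its call without any 1 of the 6 arrays. Neutral II, however, gave 86511 to 95280, as high as aggressive I.

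Lsp2 and Obp99b are both on the list of fat body markers, of which these 2 of 6 tested genes rose and 4 did not pass. Summed over the 6, the signal was 222437 to 237746 in aggressive I and 169753 to 189220 in neutral I, without overlap. Without Lsp2 and Obp99b, the 4 markers that were not called summed to 95509, 104758 and 107688 in aggressive I and to 95651, 104529 and 103085 in neutral I, which overlap. Most of that sum came from apolpp, with means of 92587 in aggressive I and 90644 in neutral I. The 4 were picked for having no call, so their overlap does not test fat body content. The lipoprotein gene apolpp, a fat body marker with no call, had a log2 difference of 0.09 (adjusted p = 0.774), and the yolk protein gene Yp3 of 0.00. The part of fat body content in the calls of Lsp2, Obp99b, Mtk, Drs and BomS2 was not tested. The tested storage and yolk list held 8 genes, with Lsp2 alone called and a median of 0.15, which was 0.01 after quantile normalization.

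Pepck2 (CG10924), a phosphoenolpyruvate carboxykinase at the entry to gluconeogenesis, gave 4535, 5570 and 4845 in aggressive I and 3527, 3165 and 3739 in neutral I. It was 1.49-fold higher (log2 difference 0.57, SE 0.10, limma adjusted p = 0.0474), the smallest of the calls, and was lost without any 1 of the 6 arrays (adjusted p up to 0.157). It was the only call among 21 tested genes of trehalose and of side routes of sugar metabolism. Treh, the enzyme that splits the blood sugar trehalose, was at 0.42 (SE 0.093, adjusted p = 0.118), and Taldo, transaldolase of the pentose phosphate pathway, at 0.52 (SE 0.12, adjusted p = 0.125). The list had 18 of 21 genes above 0 and a median of 0.09.

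CG32444, which carries the name of an aldose epimerase among its synonyms, gave 27470, 26611 and 26746 in aggressive I and 20096, 17737 and 17869 in neutral I. It rose 1.52-fold (log2 difference 0.60, SE 0.089, limma adjusted p = 0.0153), and the call held only without aggressive I array 2 or neutral I array 1 (adjusted p up to 0.0708). CG11899, phosphoserine aminotransferase of serine synthesis, rose 1.59-fold, from 6065 ± 321.9 to 9327 ± 1333 (SD, n = 3; limma adjusted p = 0.0474). CG3397, of the aldo-keto reductase family, gave 9492, 10016 and 9249 in aggressive I and 4497, 4936 and 4944 in neutral I. It rose 2.07-fold (log2 difference 1.05, SE 0.12, limma adjusted p = 0.003) and kept its call without any 1 of the 6 arrays. CG17029, listed with an inositol monophosphatase name, rose 1.92-fold, from 2491 ± 511.4 to 4597 ± 256.6 (SD, n = 3; limma adjusted p = 0.0416). The calls of CG11899 and CG17029 each passed without only 1 array, aggressive I array 2 and neutral I array 2 in turn, and reached an adjusted p of 0.172 and 0.133 without others.

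Core energy genes gave many small differences, most of them above 0, and no call. Of 60 tested genes of oxidative phosphorylation, the respiratory chain and ATP synthase of mitochondria, limma called 0, 34 had an unadjusted p under 0.05, and 53 were above 0. Their median log2 difference was 0.27, and it was 0.12 after quantile normalization and 0.20 without centring. UQCR-6.4, a subunit of complex III, gave 49983, 50723 and 50674 in aggressive I and 38449, 40631 and 39081 in neutral I (log2 difference 0.42, SE 0.091, adjusted p = 0.112). The complex I subunit genes ND-ASHI and ND-MWFE were at 0.39 (SE 0.095) and 0.37 (SE 0.092). All 3 had arrays that did not overlap, as had 33 of the 60 with aggressive I above and 1 with aggressive I below, beside 743 and 818 of all 8379. In the second pair the list median was -0.02.

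Cytosolic ribosomal protein genes had a median of 0.23, with 26 of 27 above 0, 0 called by limma and 8 with an unadjusted p under 0.05. That median was 0.04 after quantile normalization. RpS21 read 113613, 127030 and 112531 in aggressive I against 95318, 98486 and 102079 in neutral I (log2 difference 0.32, SE 0.096, adjusted p = 0.207). Mitochondrial ribosomal protein genes had a median of 0.16 over 63 genes, 49 of them above 0. Proteasome genes had 0.20 over 26, 24 of them above 0. Each of these lists had a median of 0.13 after quantile normalization. Limma called none of either list, with 12 and 7 genes at an unadjusted p under 0.05. By contrast, glycolysis (10 genes) and the citrate cycle (11 genes) had medians of 0.07 and 0.06, which both became -0.07 after quantile normalization.

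Over the whole array, the difference between the populations was larger in brighter probe sets. The median log2 difference was between -0.01 and 0.04 in the 8 dimmer deciles of the tested probe sets by signal, 0.08 in the ninth and 0.14 in the brightest decile. It was within 0.01 of 0 in every decile after quantile normalization. The populations also differed in 18S rRNA signal. The mean log2 signal of 3 rRNA probe sets was 12.69, 14.34 and 12.75 in aggressive I and 12.08, 12.16 and 11.92 in neutral I (exact two-sided permutation p = 0.1, the smallest that 3 against 3 allows; adjusted p = 0.35 over 7 array measures). Median signal was below that of neutral I on all 3 aggressive I arrays (exact two-sided permutation p = 0.1). The 3′ to 5′ signal ratios of the control transcripts overlapped between the populations. The part of rRNA signal in the list differences was not tested beyond the fit with it as a covariate, in which the medians of the oxidative phosphorylation and ribosomal lists were 0.29 and 0.26.

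**Figure D2:**
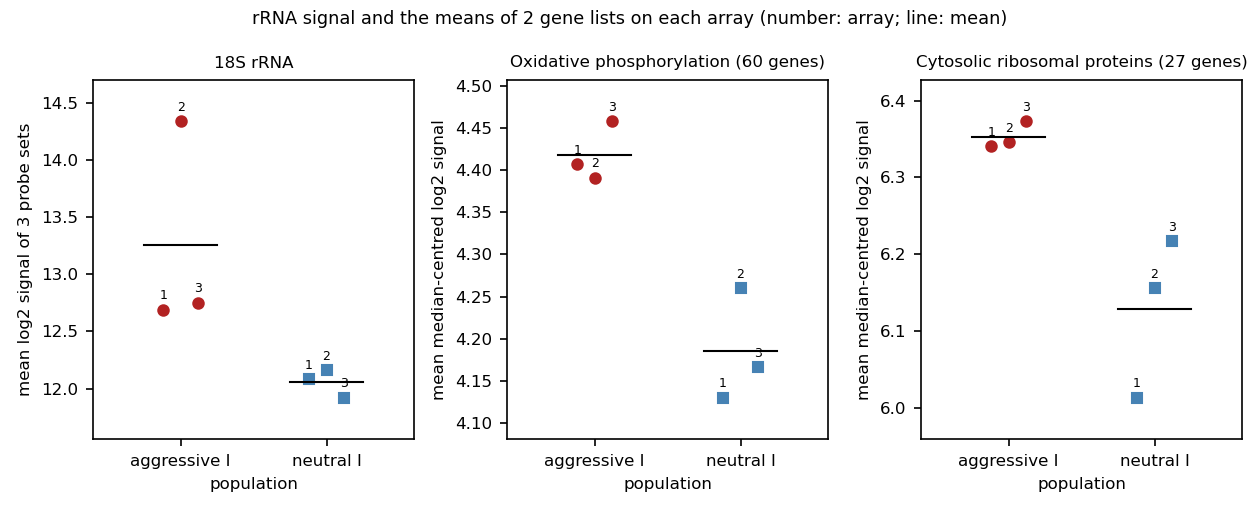
Mean log2 signal of 18S rRNA (left) and mean median-centred log2 signal of the 60 oxidative phosphorylation and 27 cytosolic ribosomal protein genes (middle and right), 1 point per array, numbered by array, with the population mean as a line. All 3 measures are higher on each aggressive I array than on each neutral I array, and aggressive I array 2 has an 18S rRNA value of 14.34.

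**Figure D3:**
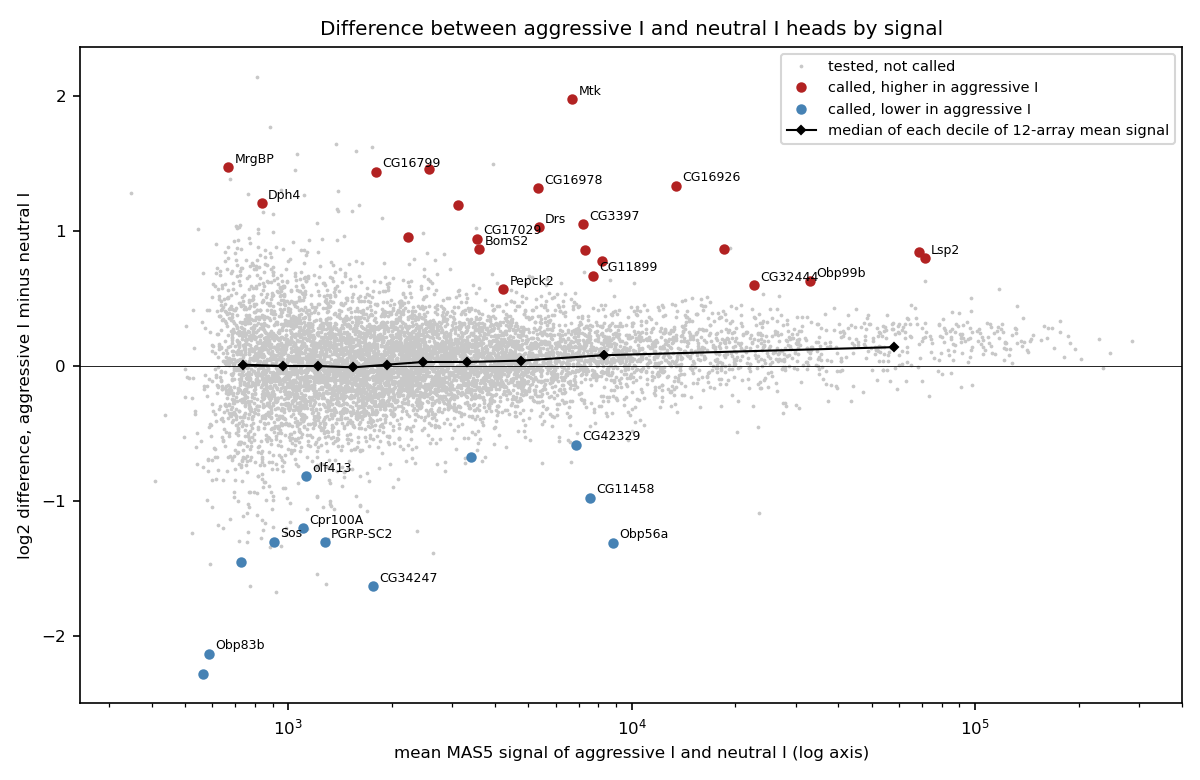
Log2 difference (aggressive I minus neutral I) of 8379 probe sets against their mean MAS5 signal (log axis), with the 22 called higher in red, the 12 called lower in blue and the named genes labelled. Diamonds give the median of each decile of the tested probe sets by mean signal over 12 arrays, which reaches 0.14 in the brightest decile.

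Detoxification genes gave no call in this pair. Of 57 tested cytochrome P450 genes limma called 0, while 11 had an unadjusted p under 0.05, and the median was 0.09. Cyp6d5 was at 0.43 (SE 0.091, adjusted p = 0.0965). Cyp6a20 (CG10245), a P450 gene known from work on fly aggression, gave 8758, 6650 and 7771 in aggressive I and 11880, 12293 and 11294 in neutral I. These arrays did not overlap, yet the log2 difference of -0.55 (SE 0.16, 95% interval -0.90 to -0.20) did not pass (limma adjusted p = 0.194), nor did it under any of 13 alternative settings, which put it between -0.64 and -0.44. In the second pair it was -1.28, and the test of the difference between the pairs did not pass (0.73, SE 0.22, adjusted p = 0.242). Glutathione S-transferase genes, 29 tested, had a median of 0.24 and 0 calls by limma, with 13 at an unadjusted p under 0.05. GstE11 and GstD2 led with 0.84 (SE 0.25, adjusted p = 0.204) and 0.63 (SE 0.19, adjusted p = 0.212). The median was 0.12 after quantile normalization. Metal and redox protection came closest through MtnA, a metallothionein that binds copper, at 137910 ± 5162 against 97276 ± 6515 (SD, n = 3; log2 difference 0.57, SE 0.11, adjusted p = 0.0546). Est-Q, an esterase, was at -0.44 (SE 0.094, adjusted p = 0.103) and was called after quantile normalization and without centring.

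Sos and olf413 were called and belong to none of the lists. Sos (CG7793), the exchange factor that loads Ras with GTP below receptor tyrosine kinases, gave 483, 509.3 and 400.9 in aggressive I and 1219, 1453 and 1368 in neutral I. The second pair, at 1076 to 1684, was like neutral I, and aggressive I lay below all other 9 arrays. Sos fell 2.47-fold (log2 difference -1.30, SE 0.15, limma adjusted p = 0.003) and kept its call without any 1 of the 6 arrays. olf413 (CG12673), which encodes a protein related to dopamine beta-monooxygenase, fell 1.76-fold on 1 of its 3 probe sets, from 1491 ± 192.1 to 765.6 ± 80.6 (SD, n = 3; limma adjusted p = 0.0247). Its remaining probe sets had log2 differences of 0.30 and 0.10 (adjusted p = 0.884 and 0.875), so the probe sets of this gene disagreed, and the call itself held only without neutral I array 3 (adjusted p up to 0.114).

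The lists of nervous function gave 0 calls by limma. Over all 8379 tested probe sets 13.1% had an unadjusted p under 0.05, the share beside which the counts of these lists stand. Biogenic amine genes had 4 of 18 at an unadjusted p under 0.05 and a median of -0.09, with the serotonin receptor gene 5-HT2A at -0.51 (SE 0.19, adjusted p = 0.285) and the octopamine receptor gene Octbeta1R at -0.57 (SE 0.23, adjusted p = 0.314). Neuropeptide genes had 5 of 24 at that level and a median of 0.12. Ilp2, an insulin-like peptide of brain neurosecretory cells, was at 0.42 (SE 0.10, adjusted p = 0.145), and Dh44, a corticotropin-releasing-factor-like peptide, at -0.55 (SE 0.15, adjusted p = 0.18). The amine median became -0.15 and the neuropeptide median 0.04 after quantile normalization. Potassium channel genes had 3 of 16 and a median of 0.06, with Shaw at -0.74 (SE 0.18, adjusted p = 0.14) and slo, the calcium-activated channel, at -0.71 (SE 0.20, adjusted p = 0.182). Glutamate and GABA genes had 4 of 18, with Gad1, which makes GABA, at -0.45 (SE 0.13, adjusted p = 0.182). Synaptic vesicle genes had 2 of 23, circadian clock genes 2 of 13, phototransduction genes 1 of 20 and sex determination genes 2 of 12. These counts were near or below the share over all tested probe sets. Among these were the clock repressor vri at -0.31 (SE 0.099, adjusted p = 0.232), the phosphatase gene rdgC at -0.54 (SE 0.18, adjusted p = 0.249) and Sxl, the sex switch gene, at -0.40 (SE 0.11, adjusted p = 0.167). All 4 tested neuron markers, of 6 on the array, were below 0 (median -0.20), with none called by limma and 1 at an unadjusted p under 0.05, and their summed signal was 17156 to 20679 in aggressive I and 20984 to 22317 in neutral I. The part of neuron content in these values was not tested.

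**Figure D4:**
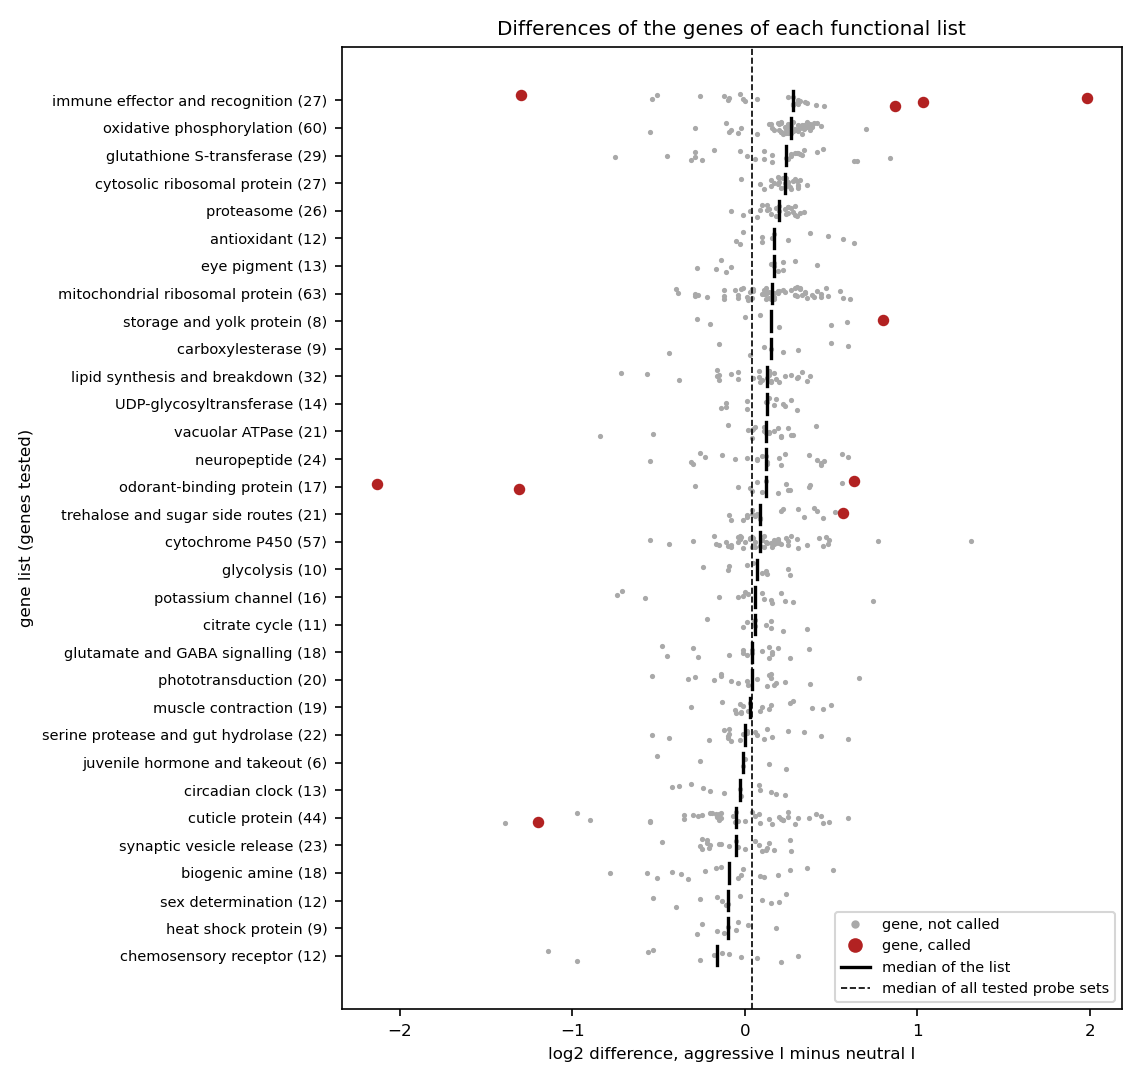
Log2 difference (aggressive I minus neutral I) of each tested gene in 32 functional lists, with called genes as large points, the list median as a bar and the median of all tested probe sets (0.04) as a dashed line. Called genes are scattered over 5 lists, and the lists with the highest medians hold mostly genes that were not called.

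Cuticle genes gave 1 call and muscle genes gave none. Cpr100A (CG12045), a chitin-binding cuticle protein gene, gave 797.5, 498.7 and 554.3 in aggressive I and 1496, 1613 and 1676 in neutral I. It fell 2.30-fold (log2 difference -1.20, SE 0.20, limma adjusted p = 0.034), a call that held only without aggressive I array 1 (adjusted p up to 0.13). The other 43 tested cuticle genes did not pass, with Cpr11B nearest at -0.55 (SE 0.11, adjusted p = 0.0653). Of 19 muscle contraction genes limma called 0, while 2 had an unadjusted p under 0.05. Mlc1, the myosin alkali light chain, was at 0.45 (SE 0.090, adjusted p = 0.0814) and TpnC41C, a troponin C, at 0.50 (SE 0.12, adjusted p = 0.145). In the second pair Mlc1 was at 0.48 (limma adjusted p = 0.0382). Of 7 tested muscle markers, which include both genes, 6 were above 0 and 0 were called. Their summed signal was 83195, 92230 and 89910 in aggressive I and 80555, 81714 and 78962 in neutral I, without overlap. The part of muscle content in these values was not tested. Heat shock protein genes, 9 tested, had 0 calls by limma and 0 at an unadjusted p under 0.05. Phosphatidylserine synthase, Pss, was at -0.72 (SE 0.15, adjusted p = 0.0965) among 32 lipid genes without a call by limma, 6 of which had an unadjusted p under 0.05.

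MrgBP and Dph4, which belong to none of the lists, were also called. MrgBP (CG13746), a subunit of the Tip60 histone acetyltransferase complex, gave 1016, 1088 and 935.6 in aggressive I and 365.9, 279.3 and 324.4 in neutral I. Neutral I lay below all other arrays of the study, so here the reference population was the odd one. MrgBP was 2.78-fold higher (log2 difference 1.48, SE 0.27, limma adjusted p = 0.0474). Dph4 (CG2911), which takes part in making diphthamide, a modified histidine of elongation factor 2, gave 1052, 1403 and 1084 against 658.1, 345.4 and 475.9. It rose 2.31-fold (log2 difference 1.21, SE 0.22, limma adjusted p = 0.0474). Both calls were weak, with MrgBP lost without any 1 of the 6 arrays and Dph4 held only without neutral I array 1 (adjusted p up to 0.157 for each).

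Several called genes have no known role that could be given here. CG16978 gave 7645, 7750 and 7275 in aggressive I and 3456, 2891 and 3010 in neutral I, a 2.50-fold rise (log2 difference 1.32, SE 0.13, limma adjusted p = 0.00113). CG16926 gave 19596, 19700 and 17406 against 7972, 10752 and 5443, 2.53-fold higher (log2 difference 1.34, SE 0.24, limma adjusted p = 0.0474), a call that held only without neutral I array 2 (adjusted p up to 0.157). On the lower side, CG11458 gave 4370, 5013 and 5338 against 10223, 9549 and 10766. It fell 1.97-fold (log2 difference -0.98, SE 0.11, limma adjusted p = 0.00305). CG16978 and CG11458 kept their calls without any 1 of the 6 arrays.

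CG34247 gave 508, 753.1 and 1171 in aggressive I and 2561, 3010 and 2583 in neutral I, a 3.10-fold fall (log2 difference -1.63, SE 0.28, limma adjusted p = 0.0433). The aggressive I arrays varied more than 2-fold among themselves, and the call held only without array 3 of that population (adjusted p up to 0.142). CG42329 gave 5422, 5056 and 5521 against 8508, 8523 and 8201, a 1.5-fold fall (log2 difference -0.58, SE 0.091, limma adjusted p = 0.0235). It was lost without any 1 of the 6 arrays (adjusted p up to 0.1), and its second probe set had a log2 difference of -0.97 (adjusted p = 0.248).

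The probe sets without a single gene name include the largest fitted decrease. Probe set 143647_at gave 114.6, 189.3 and 73.5 in aggressive I and 1106, 903.4 and 1001 in neutral I. The second pair, at 775.8 to 1067, was like neutral I, as for Obp83b. The probe set fell 4.86-fold (log2 difference -2.28, SE 0.16, limma adjusted p = 9.2e-05). The aggressive I signals lay at the percentile 12.8 of their arrays and near the pseudocount, so the size is uncertain, with a ratio of 7.98 between the deposited means and a log2 difference between -3.01 and -1.63 over the alternative settings. Probe set 148723_at was also lower, with 274.5, 460.3 and 274.9 against 1046, 1180 and 1122 (log2 difference -1.45, SE 0.18, limma adjusted p = 0.00361). Among those that rose, 141374_at gave 2895, 2951 and 2927 against 1583, 1436 and 1579 (log2 difference 0.96, SE 0.10, limma adjusted p = 0.00217). The other 7 were 143609_at, 147220_s_at, 152569_at, 152083_at, 142969_at and 147430_at, with increases between 0.78 and 1.46, and 149005_at, with a decrease of -0.68.

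The 24 named genes among the calls all lay on chromosome arms 2R, 3L, 3R and 2L, with 8, 7, 6 and 3 in turn. These arms had 1478, 1443, 1864 and 1316 tested probe sets. The X chromosome had 0 calls by limma among 1285 tested probe sets, with 153 at an unadjusted p under 0.05, and chromosome 4 had 0 calls among 54. Over all 8379 tested probe sets 0.406% were called and 13.1% had an unadjusted p under 0.05. Neighbours could be examined for 22 of the called genes. Of 62 probe sets tested within 3 genes on either side of them, limma called 0, and 12 had an unadjusted p under 0.05. These stand beside the 0.406% and 13.1% of all tested probe sets. At that share of calls, 0 among 62 is not a result about the neighbours. The arms and the gene order are those of the RefSeq annotation.

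The second pair, which shares no array with the first, gave the same sign for 18 of the 34 calls and the opposite sign for 16. Aggressive II against neutral II was itself called for 12 of the 34, in the same direction for 7 and in the opposite direction for 5. Over all 8379 tested probe sets, 64 were called in that second pair. The 7 were CG16978, CG3397, CG32444, CG11458, PGRP-SC2, Obp56a and the probe set 149005_at. The 5 were Obp99b, Pepck2, Lsp2, CG16926 and the probe set 141374_at.

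The direct test of pair I minus pair II called 36 of 8379 probe sets (0.43%), 23 above 0 and 13 below, and 14 of the 34 were among them. Obp99b had the largest such difference among the 34. It read 39524 ± 2176 in aggressive I against 26726 ± 1277 in neutral I (SD, n = 3), but 9460 in aggressive II and 74474 in neutral II. The log2 differences of 0.63 and -3.0 differed by 3.63 (SE 0.14, limma adjusted p = 3.7e-07). CG16926 went from 1.34 to -1.80 and Pepck2 from 0.57 to -1.10, with differences between the pairs of 3.14 (SE 0.34, adjusted p = 0.00148) and 1.67 (SE 0.15, adjusted p = 0.000368). Mtk, Sos and Obp83b were called in the first pair and not in the second, and their differences between the pairs, 2.24, -1.48 and -2.43, passed as well (adjusted p = 0.000181, 0.0108 and 0.000886). CG3397 was higher in the aggressive population of both pairs, but less in the first (1.05) than in the second (2.68), by -1.62 (SE 0.17, adjusted p = 0.00142).

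Genes that were not called in the first pair also passed this test. CG3984 had signals of 5363, 5748 and 6155 in aggressive I and 1717, 2720 and 1904 in neutral I (log2 difference 1.5, SE 0.34, adjusted p = 0.128), and a difference of -3.16 in the second pair. The pairs differed by 4.66 (SE 0.49, limma adjusted p = 0.00132), the largest of the 36. BomS4, a bomanin neighbouring BomS2, gave 12988, 12242 and 14021 against 11235, 10834 and 11712, and -2.88 in the second pair, apart by 3.16 (SE 0.14, adjusted p = 6.25e-07). The channel gene slo was lower in the first pair (-0.71) and higher in the second (1.48, adjusted p = 0.00435), apart by -2.19 (SE 0.29, adjusted p = 0.00517). CG13428 was at 0.23 and 1.93, apart by -1.69 (SE 0.25, adjusted p = 0.0135).

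**Figure D5:**
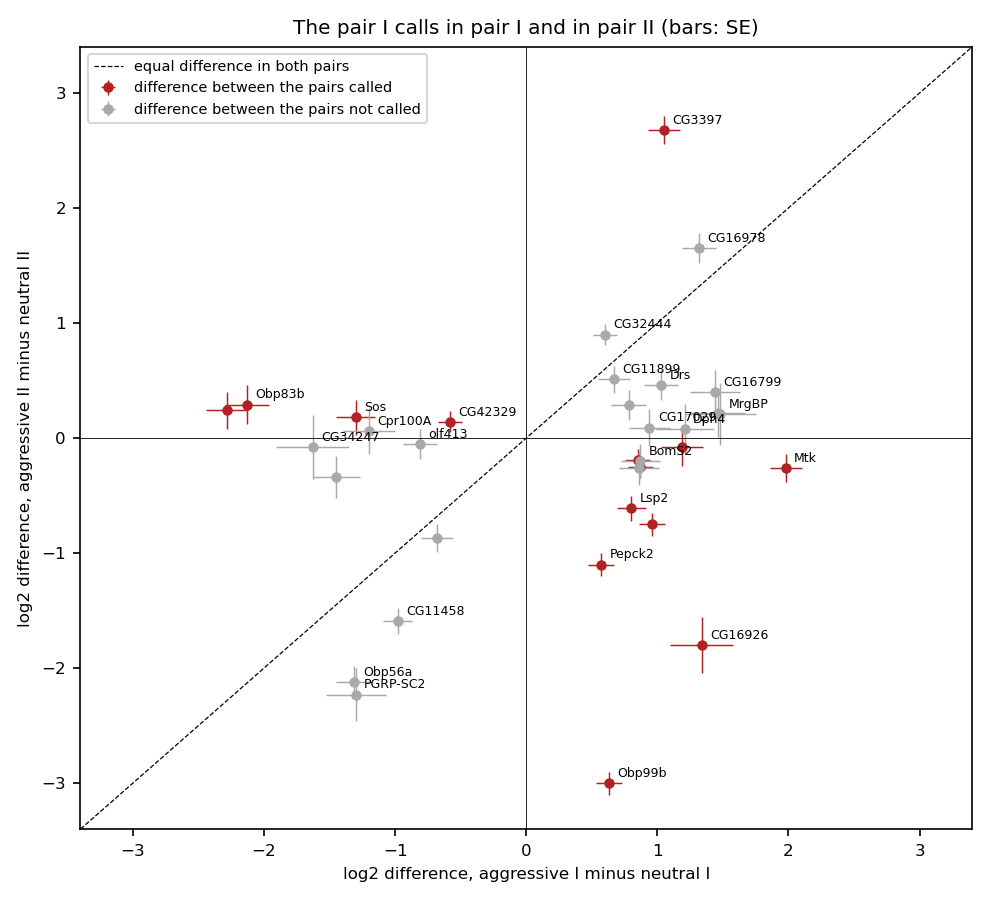
Log2 difference of the 34 calls in the first pair (horizontal) and in the second pair (vertical), with SE bars; red points are the 14 whose difference between the pairs was called, and the dashed line marks equal differences. CG16978, CG11458, Obp56a and PGRP-SC2 lie on the same side of 0 in both pairs, Mtk, Sos and Obp83b near the horizontal axis, and Obp99b at 0.63 and -3.0.

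For 20 of the 34 calls, all 3 aggressive I arrays lay outside the range of the other 9 arrays, and for 9 all 3 neutral I arrays did. These counts were not made over all 8379 tested probe sets. The calls were picked by a difference between aggressive I and neutral I on these arrays, so the counts do not say which population changed. Mtk, BomS2 and the probe sets 147220_s_at, 142969_at and 148723_at were in both groups. Among the named genes, aggressive I and not neutral I was outside that range for Drs, CG16799, Dph4, CG11899, Pepck2, olf413, Cpr100A, Sos, CG34247 and Obp83b. Neutral I and not aggressive I was outside it for MrgBP, CG17029, CG42329 and Obp56a. For Obp56a, neutral II was nearly as high, at 10429 to 11272 against 11288 or more in neutral I. Both aggressive populations were at 5501 or less.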

How the data were processed

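The deposited values are linear probe set intensities that the authors made with MAS5, a signal algorithm of Affymetrix (per the submitters' processing notes), its version and the genome build being not given in the sources used here. Across the table every array has the same trimmed mean, so differences in total RNA are not measured. Detection calls and single probes were not analysed here. Of 14010 probe sets, 44 are controls. Of the other 13966, the array annotation gives 12443 a single gene, 327 several and 1196 none, and 12394 were matched to RefSeq (Release 6 plus ISO1 MT) for symbols, chromosome arms and gene order.

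Intensities were transformed as log2(intensity + 94.6), the pseudocount being the 10th percentile, and centred on each array's median, and a probe set was tested if its mean exceeded the 40th percentile, which kept 8379. Limma 3.58.1 in R 4.3.3 fitted 1 mean per population over 12 arrays (8 residual degrees of freedom), with Benjamini-Hochberg adjustment over all 8379 and a threshold of 0.05. All adjusted p-values of probe sets are from this fit, and the number of arrays limits their precision, with a median SE of 0.173. The code was tested on simulated data. Replicate numbers of the titles were not used to pair the arrays. Deviations of same-numbered arrays of aggressive I and neutral I correlated at -0.018, -0.081 and -0.047, and those of other numbers between -0.045 and 0.082. With so few arrays, and the second pair not examined, this does not show whether the numbers mark a batch.

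Named genes are every call with 1 gene, Cyp6a20, the 3 genes of each list with the smallest p, and at most 10 genes for pair I minus pair II. Cell type markers and the tested neighbours of BomS2 are named too. So are BomBc3 and the immune genes DptB, PGRP-LB, PGRP-LE, Tep4 and the lysozyme genes, which were picked outside this rule. A gene with several probe sets stands in a list by its brightest. The comparison, the 32 functional lists and 9 marker lists were chosen with earlier results of these data known, and lists are described by counts and medians without a test. After values had been seen, the cyclophilin genes Cyp1 and Cyp40 were taken off the P450 list, LysRS off the immune list and Muc4B off the cuticle list, and vacuolar ATPase genes were made a list of their own.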

Additional observations from a re-analysis of the deposited data

Results flagged for a closer look

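The difference between aggressive and neutral heads was tested for being unlike in the first and the second pair, and 36 of 8379 probe sets passed (pair I minus pair II on the log2 scale, limma). Among the genes named above, the difference was larger or of opposite sign in the first pair for CG3984 (4.66), Obp99b (3.63), BomS4 (3.16), CG16926 (3.14), Mtk (2.24), Pepck2 (1.67) and Lsp2 (1.40), and for the probe sets 141374_at (1.70), 147220_s_at (1.28), 152569_at (1.12) and 142969_at (1.03). It was below that of the second pair for 143647_at (-2.52), Obp83b (-2.43), slo (-2.19), CG13428 (-1.69), CG3397 (-1.62), Sos (-1.48), Vha16-5 (-1.28) and CG42329 (-0.72). Vha16-5, a subunit gene of the vacuolar proton pump, was not called in the first pair (log2 difference -0.53, SE 0.16, adjusted p = 0.202).

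The 18S rRNA control probe sets, which are outside the tested values, were brighter in aggressive I than in neutral I by 1.20 on the log2 scale (exact two-sided permutation p = 0.1, the smallest possible for 3 against 3, adjusted p = 0.35 over 7 measures). Without array 2, the other aggressive I arrays at 12.69 and 12.75 still lay above the neutral I arrays at 11.92 to 12.16.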

How the results depend on the processing

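The 34 calls of aggressive I minus neutral I became 21 with no filter on dim probe sets, 98 with a trended and robust variance, 11 in a fit of the 6 arrays alone, 9 with 18S rRNA signal as a covariate (3 higher, 6 lower), 16 with the arrays that correlated least with the others left out (array 2 of aggressive I, array 3 of neutral I) and 54 without neutral I arrays 1 and 2, of which 49 were higher. The fit without neutral I arrays 1 and 2 left array 3 alone in that population, so it holds no spread within neutral I. Its larger count is therefore not a gain, and most of the 34 were not among its calls. With a replicate block there were 17 calls, all among the 34, and no label says whether the numbers mark a batch. Leaving out 1 array gave 19 to 28 calls, with 19 without neutral I array 3, 22 without aggressive I array 1 or 2 and, in fits chosen after seeing the data, 21 without aggressive II array 2. Of the 34, 16 passed in all 6 fits lacking an array of this pair, and 5 in none of them. The 36 calls of pair I minus pair II became 59 with a filter at the 60th percentile, 107 with a trended and robust variance, 56 with array weights and 17 with 18S rRNA signal as a covariate, and 23 to 33 without 1 array, with 23 without aggressive I array 3. No call of the 34 changed direction under any of these settings. Of the genes not called, Ugt35A1 turned to -0.0 with the rRNA covariate, Gr8a to 0.16 and Apoltp to -0.04 without neutral I arrays 1 and 2, and CG13428 to -0.02 without the least correlated arrays. Of the medians of gene lists under other settings, 115 moved by more than the spread between arrays and 625 did not. Causes were not tested. Dim probe sets, such as Obp83b in aggressive I, are limited by background, which was not measured here.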
